A study of Homo sapiens and Mus musculus with 9 samples.

Results

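The regions described here are human peaks from an eCLIP series on the nuclear receptor PXR (NR1I2). Their summits lay in a gene annotated as a long noncoding RNA (lncRNA) and in no small RNA or pseudogene. The LS174T lists could not be tied to a PXR pull-down with certainty, as set out below. Peaks were taken from 3 lists and placed in RefSeq gene spans of GRCh38, irrespective of strand, and 9 genes were left out by name (NEAT1, MALAT1, GAS5, SNHG1, SNHG29, DANCR, LOC729732, LOC107985958 and LOC105377166). In all, 339 of 3706 human peaks were such lncRNA peaks. The HepG2 list held 174 of its 1557 peaks (11.2%, exact Clopper-Pearson 95% interval 9.65 to 12.8), and these fell in 165 lncRNA genes. The first LS174T list held 163 of 2103 (7.75%, interval 6.64 to 8.98), in 148 genes, and the second LS174T list held 2 of 46 (4.35%). The naming rule removed 18, 13 and 3 peaks from these lists, and a small RNA or pseudogene at the summit removed another 8, 16 and 1.

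In eCLIP, RNA is crosslinked to protein by ultraviolet light in intact cells, trimmed with RNase, pulled down with an antibody and sequenced, so that a pile of reads marks a stretch of RNA held by the protein. The HepG2 libraries came from a hepatocellular carcinoma line and were pulled down with an antibody against the HA tag (2 libraries, beside 1 input library). Which construct carried the tag is not given in the labels. The LS174T libraries came from a colorectal adenocarcinoma line, as wild-type input, wild-type PXR pull-down and PXR knockout PXR pull-down (1 library each). Neither line has a drug treatment in the labels, and whether the knockout is 1 clone is not stated. The 2 LS174T lists have names that go against their entries: the list named for the wild-type pull-down (the WT-named list, the first of the pair above) is filed under the wild-type input sample, and the list named for the knockout pull-down (the KO-named list, the second) under the wild-type pull-down sample. No difference between genotypes, or between pull-down and input, is therefore drawn from them. Each group has 1 list and no values per library, so values have no replicate error and no test was made, and a difference between lists may be one of depth. The total depth of the libraries is unknown. The 10 kb windows around the peaks were summed, with the largest window taken for each 10 kb bin and strand. The sums were 125967 reads in the HepG2 list and 274326 in the WT-named list. Windows of neighbouring bins can overlap, so reads may be counted more than once. Single summits held up to 27958 and 76143 reads, so the sums do not measure depth.

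PXR is best known as a DNA-binding sensor of drugs and bile acids in liver and intestine, where it switches on genes of drug metabolism and transport as a partner of the retinoid X receptor. The lncRNA class is defined by what it lacks, a long open reading frame, and so gathers very different transcripts. Some are independent intergenic transcripts (LINC names), some run against a coding gene (names ending in AS1) or away from its promoter (names ending in DT), some carry small nucleolar RNAs in their introns (SNHG names), and some join neighbouring coding genes (hyphenated names). Many models known by a LOC number have no described function. A peak in an lncRNA span can therefore lie on RNA of the lncRNA or on RNA of another gene that shares the locus, and the strand of the peak is the first guide to which.

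The sequences that could be read from RefSeq promoter windows (250 bases before to 50 bases after an annotated start, GRCh38.p14) show both situations. The first 6 lie in lncRNA genes with no coding gene at the summit, on the strand of the lncRNA, and are the bases of the window that fall inside the HepG2 peak, with capitals from the annotated lncRNA start onward. They are shown because they place the peak against the start of the noncoding transcript.
LOC105378198 (chr5:140711285-140711325, plus strand): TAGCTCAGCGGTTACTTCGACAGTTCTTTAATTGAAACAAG
SNHG16 (chr17:76557778-76557813, plus strand): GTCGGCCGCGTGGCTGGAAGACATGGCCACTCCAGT
LINC01487 (chr3:155240901-155240994, plus strand): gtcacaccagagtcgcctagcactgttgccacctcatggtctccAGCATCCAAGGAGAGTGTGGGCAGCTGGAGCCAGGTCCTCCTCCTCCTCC
PAXIP1-DT (chr7:155003353-155003482, plus strand): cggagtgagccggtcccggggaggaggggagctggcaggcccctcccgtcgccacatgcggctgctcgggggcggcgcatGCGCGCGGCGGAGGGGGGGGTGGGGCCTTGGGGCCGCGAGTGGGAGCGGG
LOC112268150 (chr15:52100495-52100595, minus strand): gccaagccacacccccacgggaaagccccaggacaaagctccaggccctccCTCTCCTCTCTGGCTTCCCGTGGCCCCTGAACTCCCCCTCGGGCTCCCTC
CHASERR (chr15:92883046-92883179, plus strand): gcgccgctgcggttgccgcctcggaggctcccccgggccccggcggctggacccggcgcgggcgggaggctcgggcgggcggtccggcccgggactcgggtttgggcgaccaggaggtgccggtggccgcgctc

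The LOC105378198 bases hold 39.0% G and C, and those of the 5 others hold between 61.7% (LINC01487) and 83.6% (CHASERR). The CHASERR bases have no capitals because the part of the peak inside the window ends upstream of the start given there. The gene span of CHASERR starts earlier, and by that start the summit lay 228 bp inside the lncRNA. In 4 of these peaks the reads were few: 8 at LINC01487, 6 at SNHG16, 4 at PAXIP1-DT and 3 at LOC112268150. The summit of the SNHG16 peak lay 193 bp past the start, and that of PAXIP1-DT 110 bp past it.

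The next 2 sequences are the 30 bases around summits at antisense genes, written along the strand of the peak, with capitals for the bases within 5 of the summit. In both, the peak runs on the strand of the coding partner and the lncRNA starts on the other strand a short way off. They are shown because the same base pairs carry the start of one gene and the body of the other.
PCBP1-AS1, WT-named peak (chr2:70088159-70088188, plus strand): CCAACTCCaccgagcgggccatcaccatcg
PCNA-AS1, HepG2 peak (chr20:5119583-5119612, minus strand): gaccgcaacCTGGCCATGGGcgtgaacctc

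The WT-named PCBP1-AS1 summit lay 47 bp inside the lncRNA and had 16 reads. The overlapping HepG2 peak also had 16 reads, with its summit 153 bp inside, 106 bp from the other. PCBP1 codes for a protein that binds C-rich RNA. The HepG2 PCNA-AS1 summit lay 12 bp inside the lncRNA and had 12 reads. The overlapping WT-named peak had 11 reads, with its summit 65 bp inside, 53 bp from the other. PCNA codes for the sliding clamp of DNA replication.

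Read numbers were worked out from the deposited fold enrichment and −log10 p of each peak, which together allow exactly 1 whole number of reads at the summit and 1 whole number in the surrounding 10 kb for all 174, 163 and 2 lncRNA peaks. Summits of lncRNA peaks had a median of 8 reads in HepG2 (quartiles 5 and 13, range 3 to 226) and 10 in the WT-named list (quartiles 7 and 18, range 3 to 214). The medians over all peaks of the lists were 9 and 11. Fewer than 10 reads lay under 108 of the 174 summits in HepG2 (62.1%, interval 54.4 to 69.3) and 78 of the 163 in the first LS174T list (47.9%, interval 40.0 to 55.8), against 50.3% and 42.0% over all peaks. PCR copies cannot be told from separate RNA fragments here, so intervals cover counting error only.

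Most lncRNA peaks shared their locus with a coding gene. In HepG2, 89 of 174 summits (51.1%, interval 43.5 to 58.8) also lay in a protein-coding gene span, as did 119 of 163 summits of the first LS174T list (73.0%, interval 65.5 to 79.7). The strand of the lncRNA gene could be read for 128 and 119 peaks. Of these, 56 in HepG2 (43.8%, interval 35.0 to 52.8) and 33 in the WT-named list (27.7%, interval 19.9 to 36.7) lay on the strand of the lncRNA.

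The share differed with the neighbour. Where no coding gene covered the summit, the peak ran with the lncRNA at 37 of 59 HepG2 summits (62.7%, interval 49.1 to 75) and, in the WT-named list, at 20 of 32 (62.5%, interval 43.7 to 78.9). Where a coding gene did, only 19 of 69 (27.5%, interval 17.5 to 39.6) and 13 of 87 (14.9%, interval 8.20 to 24.2) did so. With the coding gene, by contrast, ran 57 of 69 HepG2 peaks (82.6%) and 89 of 93 WT-named peaks (95.7%) whose coding strand was given. Peaks in coding genes with no lncRNA at the summit ran with the coding gene in 87.3% (762 of 873) and 96.1% (1296 of 1349) of cases. A coding gene on the peak's strand and an lncRNA on the other was the commonest arrangement, at 44 HepG2 peaks (25.3%) and 66 WT-named peaks (40.5%).

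**Figure D1:**
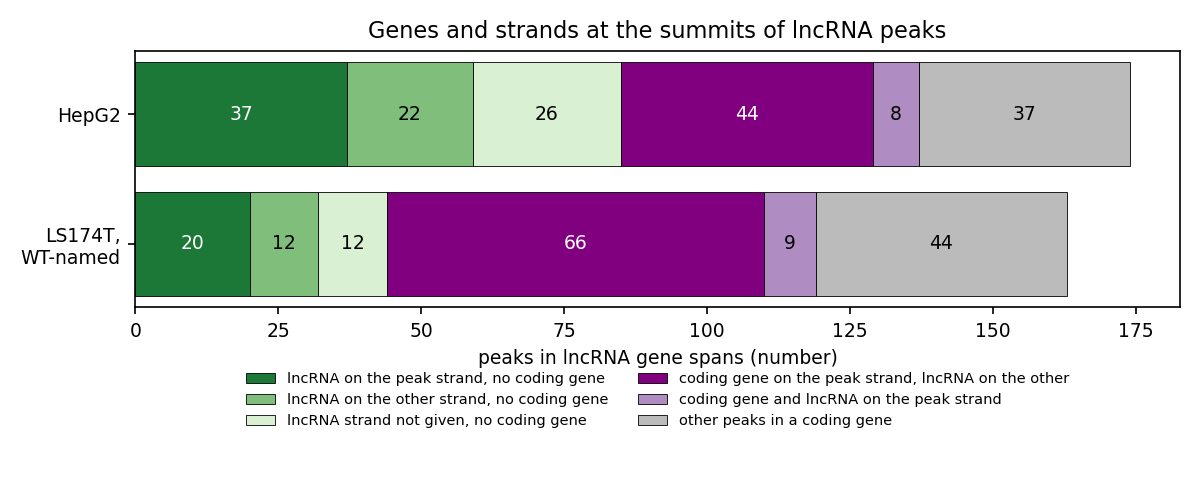
Number of lncRNA peaks (horizontal axis) in the HepG2 list and the WT-named LS174T list, split by whether a coding gene covers the summit and by the strand of either gene relative to the peak. Peaks on the strand of an lncRNA with no coding gene number 37 and 20, and peaks on the strand of a coding gene with the lncRNA on the other strand number 44 and 66.

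At some coding loci a peak of many reads lay opposite to the lncRNA. At LOC399900, which overlaps FTH1, the ferritin heavy chain gene of iron storage, the summit held 24 reads in HepG2 against 146 in the WT-named list, on the strand opposite to the lncRNA. LOC124904423 overlaps S100A6, a calcium-binding protein gene, and held 113 and 107 reads at 2 summits of the WT-named list alone. LOC105374836 overlaps TMSB10, which codes for an actin-binding thymosin, and had 3 peaks in the WT-named list, of 173, 56 and 54 reads, all on the strand of TMSB10. The HepG2 list had 1 peak there, of 17 reads.

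Peaks at loci with no coding gene more often stood alone in their window. In HepG2, 66 of these 85 peaks (77.6%, interval 67.3 to 86.0) held every read of their 10 kb window, and 29 of 44 did in the WT-named list (65.9%, interval 50.1 to 79.5). Where a coding gene covered the summit, 20 of 89 (22.5%) and 6 of 119 (5.04%) did. Among peaks in coding genes with no lncRNA at the summit, 18.1% (HepG2) and 9.35% (WT-named) did. Peaks outside both kinds of gene were not set apart, so the trait is not shown to be particular to lncRNA loci. For all lncRNA peaks the counts were 86 of 174 (49.4%) and 35 of 163 (21.5%), beside 30.1% of all HepG2 peaks and 15.6% of all WT-named peaks. The windows count reads on the strand of the peak only. At LOC107984219, HepG2 summits 166 bp apart on opposite strands held 34 of 34 and 14 of 14 reads. A summit that holds all the reads of its window is thus an isolated pile on its own strand, and reads may lie on the other strand. The median at loci with no coding gene was 7 reads in each list. Fewer than 10 reads lay under 71.8% (HepG2) and 63.6% (WT-named) of the summits there, against 52.8% and 42.0% with a coding gene. A summit of few reads can pass as a peak only where its window holds few others. The shares of lone peaks were not compared at equal reads, so part of the contrast may come from peak calling, which was not tested.

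**Figure D2:**
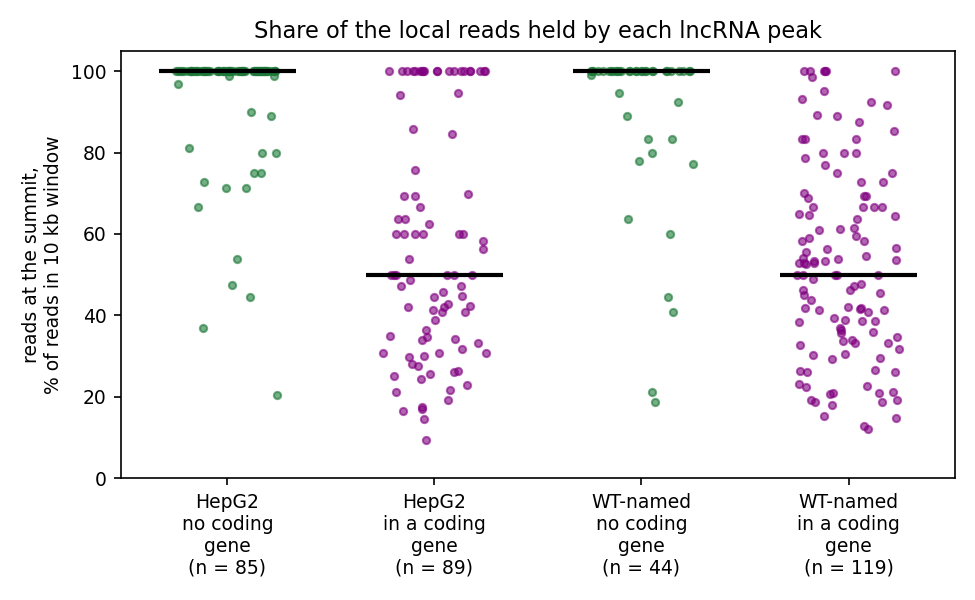
Reads at the summit as a percentage of the reads in the surrounding 10 kb on the strand of the peak (vertical axis), for each lncRNA peak, by list and by whether a coding gene covers the summit; bars mark medians. The median is 100% without a coding gene and 50% with one, in either list.

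Among sites with no coding gene, the 4 of most reads in HepG2 also had a peak in the WT-named list, and the 5 of most reads in the WT-named list also had one in HepG2. Together these are 6 sites. LOC105378198 had 157 and 186 reads at one site and 31 and 114 at another, LOC105373324 on chromosome 2 had 143 and 192, and ZNF496-DT, a transcript that starts beside the zinc finger gene ZNF496, had 80 and 94. TRIM52-AS1, named for the ubiquitin ligase gene TRIM52, had 172 reads in HepG2 against 35 in the WT-named list. These 5 sites ran on the strand of the lncRNA. LINC03000, with 7 and 55 reads, ran opposite to it. The summits of the 6 sites were 0 to 2 bp apart between the lists, except for 22 bp at the second LOC105378198 site. The next HepG2 sites by reads were LOC105370263 (63 reads, opposite to the lncRNA, with 3 in the WT-named list) and LOC105371204 (50 reads, opposite, with no partner). At LOC105373324 each list held every read of the window at the summit, 161383 on chromosome 2 in both. The peaks at LOC105373324, ZNF496-DT and TRIM52-AS1 were 200 bp wide in both lists, the length to which reads were assumed to be extended. Such a width leaves little room for reads that begin at different bases. Whether these piles are PCR copies was not tested. The median width of lncRNA peaks was 200 bp in HepG2 and 208 bp in the WT-named list.

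The LOC105378198 peaks sit on the vault RNA cluster. Vault RNAs are short RNA polymerase III transcripts that join the vault particle and also occur free in the cytoplasm, where they bind proteins of autophagy and antiviral defence. The span of LOC105378198 starts at the first base of VTRNA1-1 (140711276 on chromosome 5) and also covers VTRNA1-2 and VTRNA1-3. The 41 bases printed above are therefore bases of VTRNA1-1 as much as of the lncRNA. The HepG2 list had a peak at each of the 3 vault RNAs, of 31, 157 and 8 reads, and the WT-named list had peaks of 114 and 186 reads at VTRNA1-1 and VTRNA1-2. The HepG2 peak covered 89 of the 98 bases of VTRNA1-1, and its summit lay 30 bp past the last base. At VTRNA1-2 the summits lay 57 and 58 bp past the end of its 88 bases, and at VTRNA1-3 the summit lay 52 bp past it. Only this displacement placed the peaks among lncRNA genes, since a summit inside the vault RNA would have been left out.

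The same geometry recurred at other small RNAs. In all, 6 HepG2 and 5 WT-named lncRNA peaks (3.45% and 3.07%) held bases of a small RNA although the summit lay outside it. At SNHG25 the peaks contained all 80 bases of the box C/D RNA SNORD104, with 7 and 8 reads and summits 32 and 36 bp past its end. In THAP9-AS1 the WT-named peak of 57 reads covered 74 bases of SNORD143 with its summit 51 bp past it, and a HepG2 peak of 13 reads lay at the neighbouring SNORD144, with its summit 32 bp past it. HepG2 also had a peak of 20 reads at SNORD143, which is not counted because its summit lay inside the small RNA. At the readthrough gene EEF1E1-BLOC1S5 a WT-named peak of 55 reads contained all 126 bases of SCARNA27 and peaked 5 bp past them. The exception was MEG8, an imprinted transcript of the DLK1 and DIO3 region, where the HepG2 peak of 5 reads had its summit upstream of SNORD112, 146 bp before its last base. Positions run along the strand of the peak, because the gene table used here gives no strand for the small RNAs. Whether the reads are of the small RNA, of a precursor or of the host transcript was not tested.

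**Figure D3:**
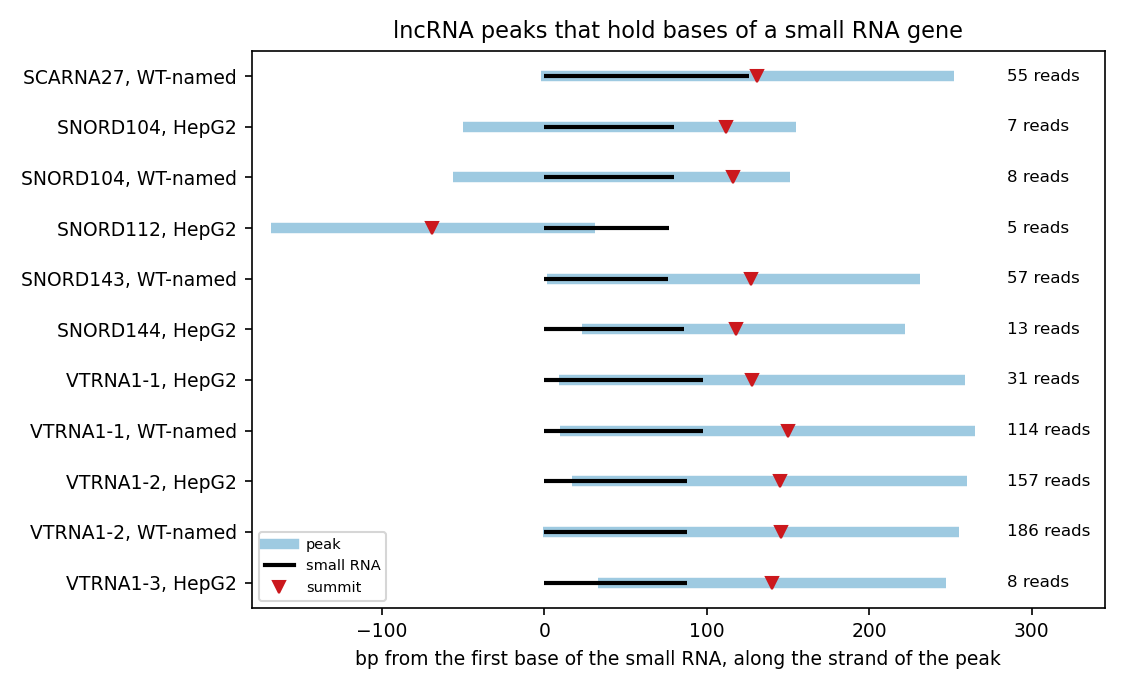
Position of the 11 lncRNA peaks that hold bases of a small RNA, in bp from the first base of the small RNA along the strand of the peak (horizontal axis); wide bars are peaks, black bars small RNAs and triangles summits. In 10 peaks the summit lies 5 to 58 bp past the last base of the small RNA, and at SNORD112 it lies before the small RNA.

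Roughly equal shares of the lists met each other. In HepG2, 55 of 174 lncRNA peaks (31.6%, interval 24.8 to 39.1) had a WT-named partner that covered at least 1 bp of them on the same strand, beside 38.5% of all HepG2 peaks. In the other direction, 56 of 163 (34.4%, interval 27.1 to 42.2) overlapped a HepG2 peak, beside 28.6% of all WT-named peaks. By gene, 56 lncRNA genes had a peak in each list, 33.9% of the genes in HepG2 and 37.8% of those in the WT-named list. The share differed with the reads at the summit. Of the HepG2 peaks with 3 to 6 reads 10 of 65 had a partner (15.4%, interval 7.63 to 26.5), and of those with 50 or more 7 of 8 did (87.5%, interval 47.3 to 99.7). The same bins over all HepG2 peaks gave 14.0% and 82.2%. In the WT-named list the share showed no steady order at low reads: 35.3% (12 of 34) at 3 to 6 reads, 25.0% (11 of 44) at 7 to 9 and 23.4% (11 of 47) at 10 to 19. It was 55.0% (11 of 20) at 20 to 49 and 61.1% (11 of 18) at 50 or more. Over all its peaks the lowest bin gave 20.3% and the highest 73.0%. The intervals of the lncRNA peaks overlapped those of all peaks in every bin.

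**Figure D4:**
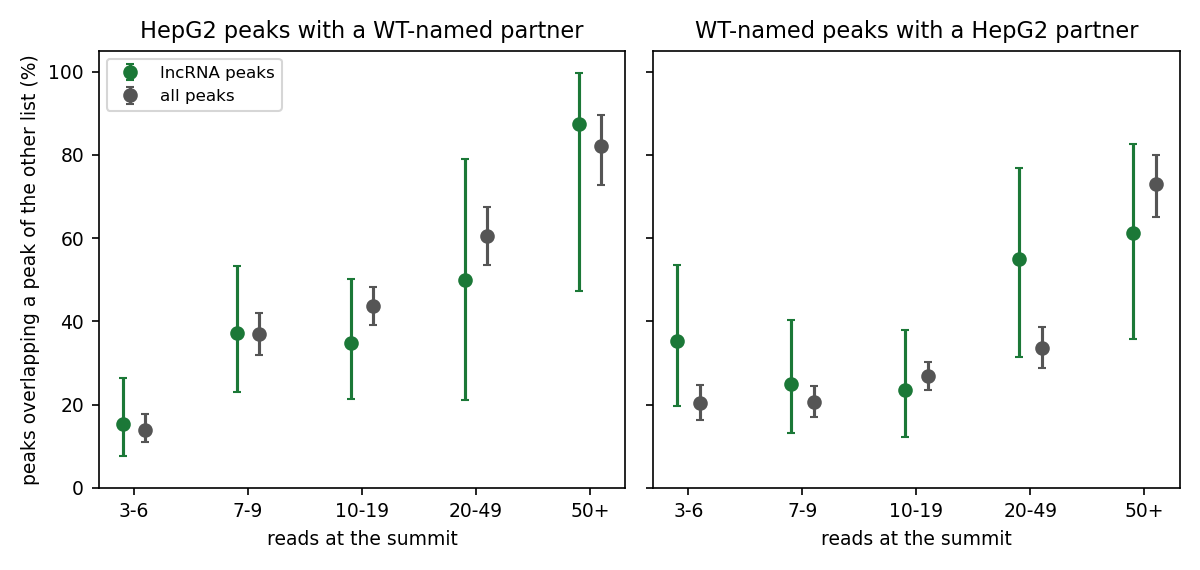
Percentage of peaks that overlap a peak of the other list (vertical axis) by reads at the summit (horizontal axis), for lncRNA peaks and for all peaks of the HepG2 list (left) and the WT-named LS174T list (right); bars are exact Clopper-Pearson 95% intervals. In HepG2 the lncRNA peaks rise from 15.4% to 87.5%, beside 14.0% to 82.2% for all peaks.

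Coding neighbours entered here too. Without a coding gene at the summit, sharing covered 23 of 85 HepG2 summits (27.1%, interval 18.0 to 37.8) and 23 of 44 in the WT-named list (52.3%, interval 36.7 to 67.5), and with one, 32 of 89 (36.0%, interval 26.1 to 46.8) and 33 of 119 (27.7%, interval 19.9 to 36.7). The gap between the summits differed as well. At the 23 shared sites with no coding gene the summits were a median of 1 bp apart, and at 20 of them 5 bp or less. At the 32 with a coding gene the median gap was 37.5 bp, and 4 were within 5 bp. Every read of the window lay at the summit in both lists at 12 of the 23 sites and at 1 of the 32.

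At the 55 shared sites the ratio of WT-named to HepG2 reads had a median of 1.14 (quartiles 0.683 and 2.23), beside 1.10 at all 600 shared sites. The WT-named list had more reads at 29 sites, HepG2 at 22, and 4 were equal. The ratio ranged from 0.0476 to 10.2. Its highest value was at LOC105374836 and TMSB10 (17 and 173 reads). LINC03000, an intergenic gene on chromosome 5, had 7 and 55 reads, and LINC02462 on chromosome 4 had 5 and 34. On the HepG2 side lay LOC105370263 on chromosome 13 with 63 and 3 reads, G2E3-AS1 with 48 and 5 on the strand of the ubiquitin ligase gene G2E3, and TRIM52-AS1.

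Among the shared sites of most reads, those in coding genes were mixed in strand. LOC105369147 on chromosome 8 overlaps FZD6, a Wnt receptor gene, and held the most reads of any HepG2 lncRNA peak, 226, against 73 in the WT-named list. The strands of both genes are missing from the promoter table. GJD3-AS1, which overlaps the connexin gene GJD3, had 19 and 60 reads on the strand of the lncRNA. ZFHX3-AS1 had 28 and 50 reads on the strand of the transcription factor gene ZFHX3, with summits 174 bp apart. LOC105372815 had 27 and 37 reads opposite to the lncRNA, in the span of TFF1, which codes for a secreted trefoil peptide of the gut mucosa. SERF2-C15ORF63 had 51 and 29 on the strand shared with SERF2. ITFG2-AS1, in the span of the immunophilin gene FKBP4, had 14 and 15, and LOC105375489, on the strand of the small GTPase gene ARF5, had 13 and 12.

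**Figure D5:**
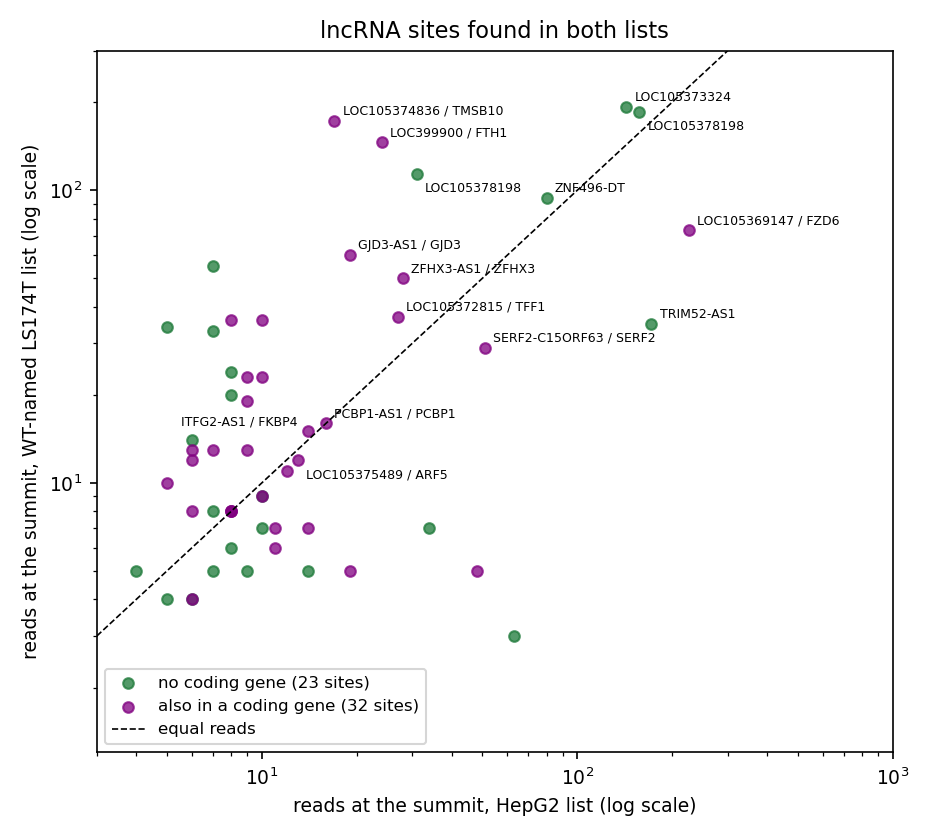
Reads at the summit in the HepG2 list (horizontal axis, log scale) and in the WT-named LS174T list (vertical axis, log scale) at the 55 lncRNA sites found in both; the dashed line marks equal reads and the 15 sites with the highest smaller read number are named. LOC105378198, LOC105373324 and ZNF496-DT lie near the line with 80 to 192 reads, and LOC105374836 (17 and 173) and LOC105369147 (226 and 73) lie on either side of it.

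The KO-named list held 2 lncRNA peaks, both of them at sites of the other lists. LOC105374836 had 27 reads of 44 in its window, beside 17 in HepG2 against 173 in the WT-named list. LOC105369147 had 7 reads, which were all the reads of its window, beside 226 and 73. Of all 46 peaks of that list, 95.7% overlapped a WT-named peak.

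The HepG2 peaks with no WT-named partner numbered 119. The largest was at LOC105371204 on chromosome 16, with 50 reads on the strand opposite to the lncRNA. PIWIL4-AS1, named for the piRNA-binding Argonaute gene PIWIL4, had 48 reads on its own strand, LOC101928622 had 39 and LOC105369975 had 29. In each of these 4 the summit held every read of the window and no coding gene covered it. The rest of the leading sites ran mostly with a coding gene. IGFBP-AS1 had 2 peaks, of 37 and 18 reads, 126 and 459 bp from its start, on the strand of IGFBP5, a binding protein of insulin-like growth factors. MVP-DT had 24 reads on the strand of the zinc finger gene MAZ, HSALR1 had 19 on the strand of PIEZO1, a mechanically gated channel gene, and KCNK15-AS1 had 20 in the span of CCN5. Another 4 peaks had 18 reads: CCDC183-AS1 on the strand of RABL6, LOC105370113 on that of MIPEP, LOC107984340 on that of the small GTPase gene RAB1B, and the readthrough gene STX16-NPEPL1 on that of STX16.

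The WT-named list had 107 lncRNA peaks with no HepG2 partner, and the largest were in coding loci. RTEL1-TNFRSF6B, a readthrough gene that begins with the helicase gene RTEL1, had 214 reads of 946 in its window, on the strand opposite to both. HepG2 had a peak of 16 reads elsewhere in this gene, on the other strand. LOC124907999, within AGAP1, had 144 reads of 554 under a peak 1198 bp wide. PHLDA1-AS1 had 29 reads, on the strand of PHLDA1, and LOC105369625 had 24 on the strand of the tetraspanin gene CD9.

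Over all 18330 lncRNA genes, 165 had a peak in HepG2 (0.9%), 148 in the WT-named list (0.807%) and 257 in either (1.4%). Among 21 small nucleolar RNA host genes, 3 had a peak in HepG2 against 5 in the WT-named list, 7 genes in all. SNHG8 had 17 reads (WT-named), SNHG7 had 10 (WT-named), SNHG10 had 9 (HepG2), and SNHG6 and ZFAS1 had 8 each (WT-named). SNHG25 was the only host gene of the 21 with a peak in both lists. Of 24 broadly expressed lncRNAs, 6 had a peak in HepG2 and 4 of those 6 also had one in the WT-named list. NORAD, a cytoplasmic transcript that titrates Pumilio proteins, had 10 reads of 49 in its window in HepG2 against 9 of 48 in the WT-named list, on its own strand, with summits 65 bp apart. CHASERR, which lies upstream of the chromatin remodeller gene CHD2 and restrains it in cis, had 10 reads of 27 in HepG2. GABPB1-AS1 had 6 and 8 reads on the strand of GABPB1.

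Of 19 lncRNAs linked to chromatin, MEG8 and PAUPAR, a transcript beside PAX6, had a HepG2 peak and none had a WT-named peak. PAUPAR had 12 reads on its own strand, all the reads of its window. Of 21 listed microRNA host genes 1 had a peak in each list, MIR181A2HG (3 reads, HepG2) and MIR4435-2HG (7 reads, WT-named). MIR4527HG, a host gene outside that list, had a HepG2 peak of 5 reads. A HepG2 peak of 13 reads credited to LOC105372698 also lay in the span of MIR646HG. None of the 34 genes listed here as lncRNAs known from colon or liver cancer had a peak. That list holds none of the host genes with a peak named above, and peaks at the genes left out by name are not counted. A gene linked to either cancer may stand in another list or in none. At 0.9% and 0.807% of all lncRNA genes, lists of this size would hold few or no peaks, so nothing is read from the microRNA host and cancer counts. An lncRNA gene with no peak may be unbound, little expressed or too shallowly sequenced, and these cannot be told apart.

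Peaks lay both near the annotated lncRNA starts and far along the genes. Within 1000 bp of the annotated start lay 49 of 128 HepG2 summits (38.3%, interval 29.8 to 47.3) and 48 of 119 WT-named summits (40.3%, interval 31.4 to 49.7). On the strand of the lncRNA the counts were 18 of 56 (32.1%) and 8 of 33 (24.2%), with median distances of 5737 and 15995 bp. On the other strand they were 31 of 72 (43.1%) and 40 of 86 (46.5%), with medians of 1241 and 1145 bp. Peaks on the strand of a coding gene with no lncRNA at the summit lay within 1000 bp of its start in 54.5% (HepG2) and 45.6% (WT-named) of cases. Genes with a lncRNA peak had long spans, with medians of 21659 and 20043 bp, beside 9037 bp over all 18330 lncRNA genes, and a longer span offers more room for a peak.

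Promoter windows of these genes were searched for AGGTCA and AGTTCA, the hexamers from which DNA sites of PXR are built, on either strand. AGGTCA was found in 15.4% of 123 windows of genes with a HepG2 peak, 16.4% of 110 windows of genes with a WT-named peak, 17.0% of 11462 windows of all lncRNA genes and 13.9% of all windows. For AGTTCA the shares were 11.4%, 11.8%, 13.3% and 10.5%. A match is a run of letters and not a binding site.

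A small group of loci carried peaks on both strands. At LOC107984219 on chromosome 10 the plus-strand summit had 34 reads in HepG2 against 7 in the WT-named list, and the minus-strand summit had 14 and 5. The summits of opposite strand were 166 and 161 bp apart. At LOC107984794 on chromosome 15, which overlaps LOC105370802, they had 7 and 33 reads on the plus strand and 8 and 6 on the minus strand, 170 and 171 bp apart. These were the only lncRNA peaks with a partner of opposite strand within 500 bp, 4 peaks in each list (2.30% and 2.45%), beside 1.03% of all HepG2 peaks and 0.713% of all WT-named peaks.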

How the data were processed

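Peak lists of the PXR eCLIP series in HepG2 and LS174T cells were used as deposited. Cutadapt, BWA and MACS2 and the builds hg38 and mm10 are named in the submitters' processing notes, and the sources used here give neither versions nor settings. The authors deposited, for each peak, its position, a score, the fold enrichment (a ratio), the −log10 p and −log10 q and the summit. The score was not used. Whether the HepG2 list pools both libraries, and whether an input served as control, is not stated in the labels. They name no separate cultures. Reads at the summit and in the 10 kb around it were solved from the deposited fold and −log10 p. MACS2's formulas were assumed (a Poisson tail, a pseudocount of 1 and reads extended to 200 bp). The background was assumed to be the reads of that 10 kb from the same data, with no input as control. Under these assumptions every lncRNA peak had 1 solution, with a tolerance of 0.001 on the −log10 p. The fold then compares a summit with its own surroundings and not with an input. The solver was tested on simulated data. Genes came from the RefSeq table of GRCh38.p14 as spans, without exons, and strands from the RefSeq promoter table, which covers 11461 of 18330 lncRNA genes. The start was identical in both tables for 95.6% of these. Among the 190 of them with an lncRNA peak it was identical for 175 (92.1%) and within 1000 bp for 178. Distances from a start use the start of the gene span. A summit in several lncRNA spans (12 peaks) was named for 1 of them. Shares carry exact Clopper-Pearson 95% intervals, and no test was made, since each group has 1 list. The rule and the gene lists were chosen with earlier results of these data known. Genes are named where a site is among the 15 shared sites of most reads, the 10 of most reads in 1 list only (ties included), in the KO-named list, in a gene with 3 peaks, or leads a gene list, and those named at the extremes of a ratio, at small RNAs, on both strands or in small counts were chosen after their values were seen. Python 3.11.15, numpy 2.4.6, pandas 2.3.3, scipy 1.17.1 and matplotlib 3.10.9 were used. The mouse liver list was not used here. Some items that the naming rule selects are not reported here.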

Additional observations from a re-analysis of the deposited data

How the results depend on the processing

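Of 39 alternative values, 18 stayed within the interval of the value reported (for counts of peaks, within 1.5 times of it) and 21 moved. Keeping only lncRNA genes on the strand of the peak left 56 HepG2 and 33 WT-named peaks, and 48.5% of the latter were shared and 24.2% lay near the start. Leaving out peaks that also lie in a coding gene left 85 and 44, of which 62.7% and 62.5% ran with the lncRNA and 20.3% and 9.38% lay near the start. It raised the shared WT-named peaks to 52.3% and lowered their median to 7 reads. Requiring a −log10 q of at least 5 left 102 HepG2 peaks, 41.2% of them shared. Requiring 10 reads left 66 and 85, with 43.9% of the HepG2 peaks shared. With summits within 50 bp in place of any overlap, 23.6% and 25.2% were shared. Within 300 bp of the start lay 17.2% and 18.5%. The median ratio at shared sites stayed between 1.14 and 1.34. No paired analysis was possible because each group has 1 peak list and no values per library. Depth limits the account: 108 and 78 peaks rest on fewer than 10 reads.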

Other observations

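The kinds of lncRNA name differed in how often a coding gene covered the summit. Several of these names are given by position relative to coding genes, so the shares largely follow from the naming and say little about the peaks. Antisense names held 46 HepG2 and 55 WT-named peaks, and a coding gene covered 40 (87.0%) and 51 (92.7%) of them. LINC names, given to intergenic genes, held 18 HepG2 peaks and 5 WT-named peaks, none of them in a coding gene. LINC02824 led the HepG2 LINC peaks with 16 reads, all the reads of its window, on the strand opposite to the gene. In the WT-named list LINC03000 led with 55 reads, also opposite to the gene, and 4 of the 5 LINC peaks there were shared with HepG2, as were 4 of the 18 in HepG2. Readthrough names, counted only where both parts were recognised as gene symbols, held 7 and 10 peaks, with a coding gene at 6 and 10 of them. SERF2-C15ORF63, with 51 and 29 reads, and STAG3L5P-PVRIG2P-PILRB fell outside this count. Divergent names held 14 and 9 peaks, with a coding gene at 5 and 5. Genes with only a LOC number held the most, 70 and 73 peaks, and a coding gene covered 30 (42.9%) and 49 (67.1%) of them. The only peak at a gene with a name for overlapping transcripts was at SOX1-OT, with 3 reads in the WT-named list.

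Several lncRNA genes carried more than 1 peak in a list, 8 genes in HepG2 and 14 among the WT-named peaks. IRAIN, an antisense transcript within IGF1R, the insulin-like growth factor receptor gene, had 2 HepG2 peaks of 16 and 12 reads, both on the strand of IGF1R.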
